A study of Sus scrofa with 12 samples.

Results

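The genes described here encode the proteins of the mitochondrial ribosome, measured in the duodenal mucosa of 12 pigs. They are the genes whose array symbol begins with MRPL (mitochondrial ribosomal protein, large subunit) or MRPS (small subunit) followed by a number. These symbols marked 78 probe sets, and for each symbol the probe set with the highest mean over the 12 pigs was used. That gave 59 genes of the 13755 symbols on the array, 35 of the large and 24 of the small subunit. All but MRPL9 passed the filter on dim probe sets (a mean log2 value above 2.37), which left 34 large and 24 small subunit genes of 12267 symbols tested. A further 18 genes of the same 2 symbol series in the pig gene table are not named on the array and were not analysed here, among them MRPL11, MRPL49 and MRPS27.

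Mitochondria make a small set of proteins themselves, all of them parts of the respiratory chain and ATP synthase, on ribosomes of their own. The RNA of these ribosomes comes from mitochondrial DNA, whereas every protein is encoded in the nucleus, made in the cytosol and imported. One set of the proteins descends from those of bacterial ribosomes, and the rest are particular to mitochondria. In the intestine, mitochondrial ATP pays for the ion pumping that drives nutrient uptake across the epithelium.

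The study compared pigs of high and low feed efficiency (FE), the efficiency with which feed is turned into growth. The labels do not give the measure or the cut that assigned a pig to a group. All pigs were 140 days old. Each group held 6 pigs, 3 males and 3 females, with 1 Affymetrix Snowball array per pig, and no treatment separates the groups other than their FE class. Array medians lay between 3.83 and 3.91, and how precise a value can be is limited by the 12 arrays. The median of the 69 antigenomic probe sets, which measure array background, lay between 2.16 and 2.53 and was 2.30 ± 0.12 (SD, n = 6) in high and 2.38 ± 0.10 in low FE. Of 15 markers of mature enterocytes, 13 are named on the array, and all lay well above that background. VIL1, which bundles actin in microvilli, had means of 10.1 in high and 9.96 in low FE, and PDX1, a transcription factor of the duodenum, 7.48 and 7.50. In a piece of mucosa, fewer cells of a type and less RNA per cell cannot be told apart.

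All values are log2 values as deposited, so that a difference of 1 is a doubling. Levels of different genes are not set against each other, since each probe set binds with its own strength. Of the 58 genes tested, 56 had means between 4.84 (MRPL47) and 8.72 (MRPL37). The exceptions were MRPL44, an RNase III relative on the large subunit, at 3.27 ± 0.13 (SD, n = 12), and MRPL51 at 3.20 ± 0.25, both close to array background. MRPL9 averaged 2.20, within the range of the background medians, and its 12 values ran from 1.81 to 2.44. No difference is given for it.

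No gene of the mitochondrial ribosome passed the test between high and low FE. The count was 0 of 58 at an adjusted p under 0.05 in limma, with a lowest adjusted p of 0.753, where 0% of all 33405 probe sets passed. An unadjusted p under 0.05 was found for 5 of 58 genes, or 8.62%, beside 5.99% of all probe sets. In high FE the mean was higher for MRPS30, MRPL47, MRPS31 and MRPL1 (4 of 58, beside 2.65% of all probe sets) and lower for MRPL45 (1 of 58, beside 3.34%). The mean was lower in high FE for 39 of 58 genes (67.2%), beside 54% of all probe sets and 58.2% of all genes taken with 1 probe set each, but for 28 of 58 with array background as a term in the model. The median difference was -0.06 for the 58 genes, and 0.005 with that term. For all genes the median was -0.04 and -0.02.

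MRPS30 had the largest difference between the FE groups. The protein is named for the small subunit, but structures of the mammalian mitochondrial ribosome place it in the large subunit, where it lies beside MRPL37 of the same family. In high FE pigs 1 to 6 its values were 6.62, 6.22, 6.04, 6.20, 6.19 and 6.01, and in low FE pigs 1 to 6 they were 5.75, 5.80, 5.32, 5.70, 5.50 and 5.52. Every high FE pig lay above every low FE pig. It was the only gene of the 58 whose groups did not overlap (1.72%), beside 0.26% of all probe sets, or 0.0898% in this direction. The means were 6.21 ± 0.22 (SD, n = 6) and 5.60 ± 0.18, a difference of 0.61 ± 0.13 (SE) or 1.53-fold, with an unadjusted p of 0.000496 and an adjusted p of 0.753. The probe set ranked 13 of 33405 by p. The difference was 0.56 in females and 0.67 in males. MRPL37 itself differed the other way, by -0.19 ± 0.13 (SE), with an adjusted p of 0.76 and overlapping groups, or by -0.07 with array background as a term. Of its other probe sets, 2 passed the filter, at -0.62 and -0.40, with unadjusted p-values of 0.0417 and 0.0339 and an adjusted p of 0.753.

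MRPL47 is a protein of bacterial descent at the rim of the tunnel through which the new protein leaves the large subunit. Its values had a lowest, median and highest of 4.82, 5.05 and 5.41 in high FE and of 4.19, 4.54 and 5.03 in low FE. Low FE pig 5, at 5.03, lay among the high FE pigs, and the other low FE pigs lay below all of them. The difference was 0.51 ± 0.15 (SE), or 1.43-fold, with an unadjusted p of 0.0055 and an adjusted p of 0.753. It was 0.42 without low FE pig 4 and 0.61 without low FE pig 5.

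MRPS31, a small subunit protein particular to mitochondria, ran over 6.12, 6.30 and 6.55 (lowest, median and highest) in high FE and 5.85, 6.01 and 6.20 in low FE. The groups overlapped only through low FE pig 4, which at 6.20 lay above high FE pigs 3 and 6. The difference was 0.31 ± 0.11 (SE), with an unadjusted p of 0.0173, and it was 0.22 with array background as a term. MRPL1, the protein of the mobile stalk beside the exit site for used tRNAs, ran over 5.58, 6.32 and 6.81 in high FE and 5.53, 5.90 and 6.15 in low FE. High FE pig 2, at 5.58, lay among the low FE pigs, and the other high FE pigs lay above all low FE pigs. The difference for MRPL1 was 0.38 ± 0.17 (SE), with an unadjusted p of 0.046 and an adjusted p of 0.753.

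MRPL45 sits at the tunnel exit and holds the ribosome to the inner mitochondrial membrane. Its lowest, median and highest values were 5.11, 5.49 and 6.05 in high FE and 5.52, 5.93 and 6.39 in low FE. The ranges overlapped widely. The difference was -0.39 ± 0.17 (SE), with an unadjusted p of 0.0372 and an adjusted p of 0.753, and it was -0.17 with array background as a term. A second MRPL45 probe set differed by -0.02 between the FE groups.

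**Figure D1:**
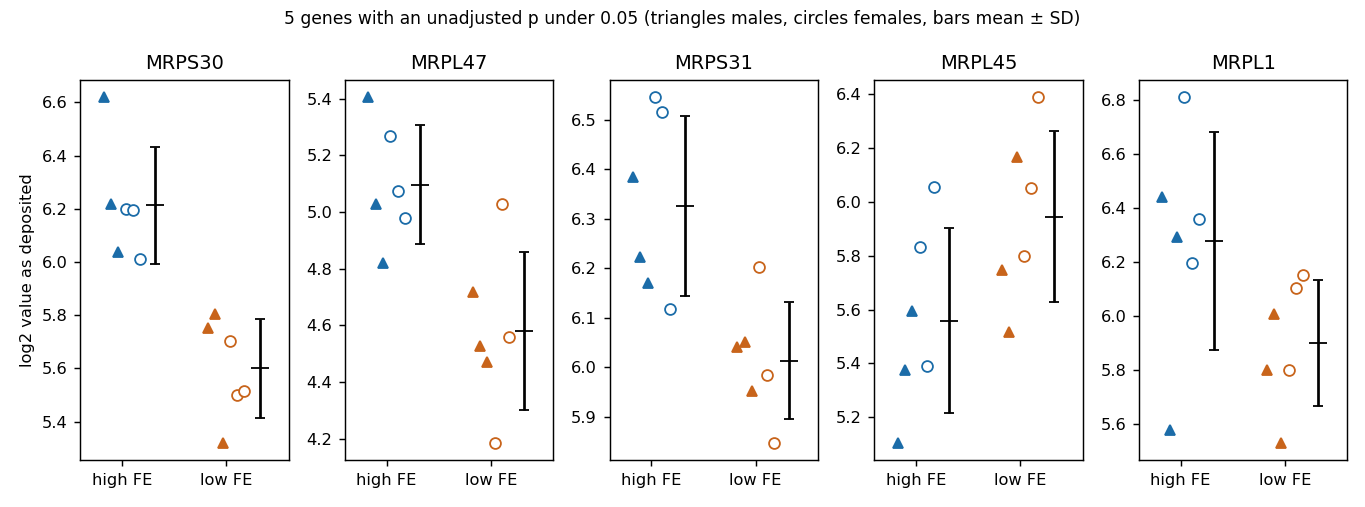
Log2 values as deposited (vertical axis) of the 5 genes with an unadjusted p under 0.05 between high and low FE. Each point is 1 pig (triangles males, circles females), and bars are the mean ± SD of 6 pigs. Each panel has its own axis, which does not start at 0. The groups are apart for MRPS30 and overlap for the other 4 genes.

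In the rest of the large subunit the differences were smaller. MRPL32, a protein trimmed by a membrane protease after import, had 7.63 ± 0.17 (SD, n = 6) in high and 7.37 ± 0.22 in low FE, a difference of 0.26 ± 0.13 (SE). MRPL46, at the central protuberance that faces the small subunit, differed by 0.18 ± 0.11 (SE), and 1 pig of high FE, pig 3 at 7.24, stood above the other 11. Without that pig the difference was 0.11. The groups overlapped for both genes. In the other direction, MRPL10, which anchors the stalk that receives translation factors, differed by -0.28 ± 0.18 (SE), or by -0.09 with array background as a term and -0.16 without high FE pig 1. MRPL2, of the core around the site of peptide bond formation, differed by -0.31 ± 0.22 (SE). MRPL2 had the largest SD of the 58 genes over the 12 pigs, 0.43, with values from 6.31 to 7.48. MRPL2 values below 6.4 came from high FE pigs 1 and 5 only, at 6.32 and 6.31.

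By place on the large subunit, no region had a member past the adjusted threshold. The 3 stalk proteins measured, MRPL10, MRPL12 and MRPL53, all had the lower mean in high FE, and their median difference was -0.10. With array background as a term 2 of the 3 were lower, with a median of -0.09. At the central protuberance 4 of 6 genes were lower (median -0.15), and 3 of 6 with that term (median 0.04). At the rim of the exit tunnel 4 of 6 were lower with a median of -0.01, and 2 of 6 with that term (median 0.06). MRPL47 and MRPL45, at the upper and lower ends of the MRPL genes, both belong to it. MRPL17, MRPL22, MRPL23 and MRPL24, the other proteins of that rim, had differences of -0.21, -0.00, -0.01 and 0.03. The other MRPL23 probe sets, both past the filter, differed by -0.32 and -0.09, and they are not in the rim counts. Of the 21 large subunit genes of bacterial descent 14 were lower (median -0.02), or 8 with the background term (median 0.02). Of the 15 particular to mitochondria, with MRPS30 and MRPS18A counted among them, 10 were lower (median -0.10), or 9 with that term (median -0.01). The median of -0.10 is the difference of MRPS18A itself, a relative of a bacterial protein.

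In the small subunit, MRPS21 had the lowest p among the genes with a lower mean in high FE. It is the counterpart of the bacterial protein bS21. Its lowest, median and highest values were 5.88, 6.49 and 6.66 in high FE and 6.55, 6.68 and 6.80 in low FE. The groups overlapped, with high FE pig 5 at 5.88 far below the rest. The difference was -0.27 ± 0.13 (SE), and -0.17 without that pig. MRPS11, on the platform of the subunit, differed by -0.24 ± 0.14 (SE), MRPS28 by -0.25 ± 0.16 (SE) and MRPS34, a protein particular to mitochondria, by -0.23 ± 0.16 (SE). MRPS15, a protein that binds the ribosomal RNA of the subunit, differed by -0.18 ± 0.12 (SE). Of the genes with a higher mean, MRPS5, which lies where the messenger RNA enters, differed by 0.17 ± 0.14 (SE). With array background as a term the differences were -0.12 for MRPS11, -0.05 for MRPS34 and 0.06 for MRPS5. Leaving out high FE pig 2 gave -0.13 for MRPS28, leaving out high FE pig 1 or 5 gave -0.16 or -0.13 for MRPS34, and leaving out low FE pig 3 gave 0.08 for MRPS5. The groups overlapped for each of these genes, and the adjusted p lay between 0.753 and 0.772. Of 15 small subunit genes of bacterial descent 11 were lower (median -0.14), or 8 with array background as a term (median -0.04). Of 7 particular to mitochondria, with MRPS18B counted among them, 4 were lower (median -0.02), or 3 with that term (median 0.15).

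Mammals carry 3 genes for relatives of the bacterial protein bS18. Their products sit in different places, MRPS18B and MRPS18C on the small subunit and MRPS18A on the large. In the counts by descent above, only MRPS18C was put with the genes of bacterial descent. MRPS18A and MRPS18B were put with those particular to mitochondria, although all 3 are relatives of bS18. MRPS18C was higher in high FE by 0.15 ± 0.14 (SE), and MRPS18A and MRPS18B were lower, by -0.10 ± 0.20 (SE) and -0.13 ± 0.14 (SE). None of these differences exceeded its error by much, and the groups overlapped for all 3 genes. The difference for MRPS18A turned to 0.04 without high FE pig 5, whose value of 5.63 lay below the 5 other high FE pigs. Over the fits that left out 1 pig it ran from -0.25 without low FE pig 3 to that value, and was -0.001 without low FE pig 1 and -0.006 without low FE pig 5. MRPS18B was at -0.03 without high FE pig 5, and also with array background as a term, and MRPS18C at 0.05 without low FE pig 3.

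**Figure D2:**
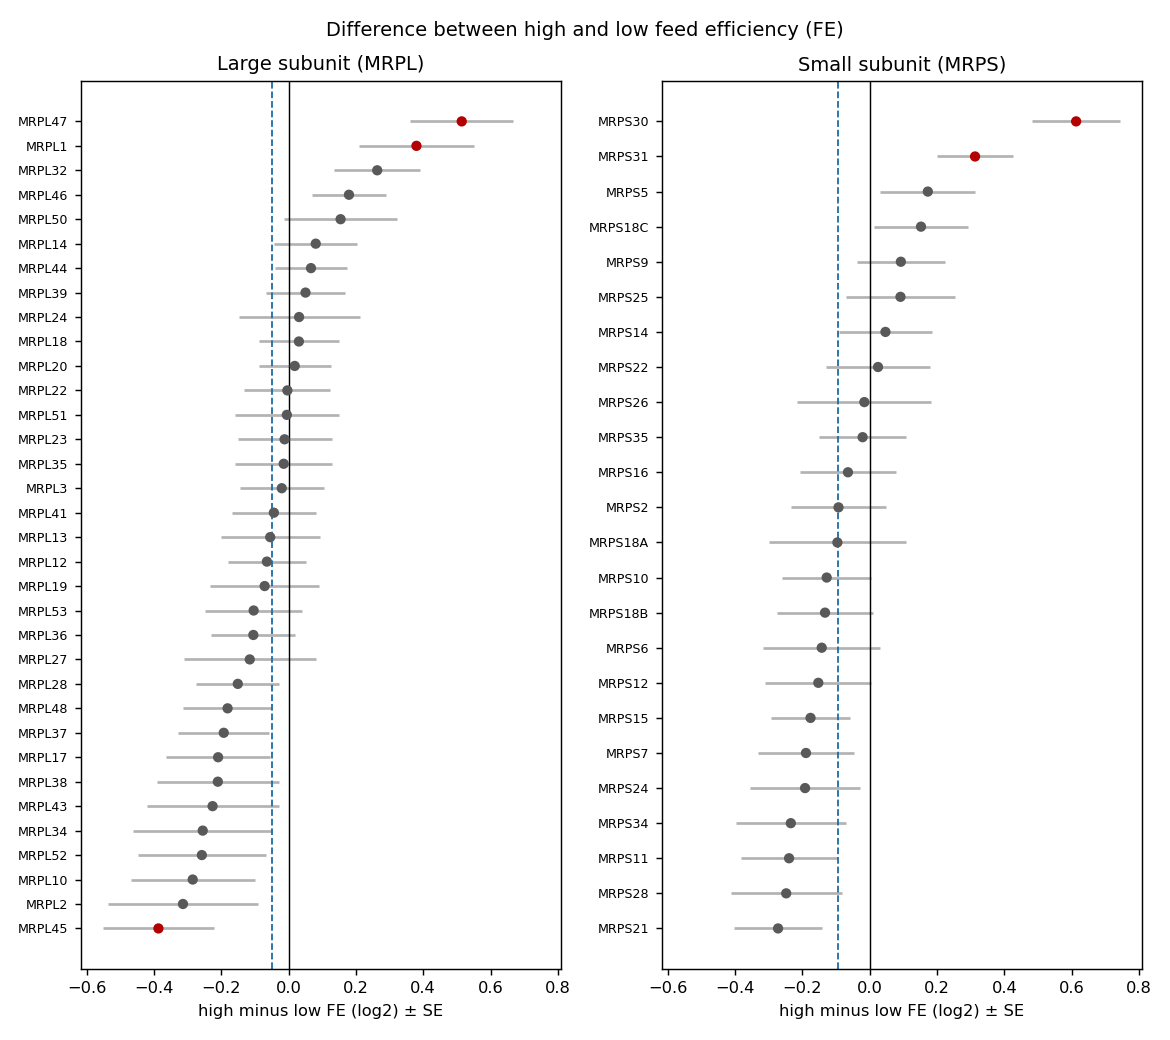
Difference between high and low FE (horizontal axis, log2, mean ± SE) for the 34 large and 24 small subunit genes tested, ordered by size. Red points have an unadjusted p under 0.05, the dashed line is the median of the panel and the solid line is 0. Most genes lie within 0.3 of 0 on either side, with MRPS30 at 0.61, MRPL47 at 0.51 and MRPL45 at -0.39 the farthest out.

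The subunits differed little from each other in their FE differences. In the large subunit 23 of 34 genes were lower in high FE, and the differences had a median of -0.05 and a range from -0.39 to 0.51. In the small subunit 16 of 24 were lower, with a median of -0.09 and a range from -0.27 to 0.61. The large subunit median was 0.01 with array background as a term, and the small subunit median was then -0.01. With MRPS30 and MRPS18A moved to the large subunit, where their proteins sit, 24 of 36 large and 15 of 22 small subunit genes were lower, with medians of -0.05 and -0.11. The gap between the medians, large minus small, was 0.05, and it lay between 0.006 and 0.10 over all settings run. No test was made on these medians, since the genes of a subunit are not replicates.

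The values of most of these genes moved together from pig to pig. To show it, each gene's values were centred on its mean over the 12 pigs. The large subunit mean in high FE pigs 1 to 6 was then -0.14, -0.10, 0.12, 0.14, -0.26 and 0.10, and in low FE pigs 1 to 6 it was 0.14, 0.01, 0.02, -0.22, 0.09 and 0.09. High FE pig 5 and low FE pig 4, both females, were the lowest, and the FE groups covered each other's range. The small subunit mean in the same order was -0.07, -0.05, 0.11, 0.09, -0.27 and 0.07 in high FE and 0.14, 0.08, -0.05, -0.16, 0.07 and 0.04 in low FE. The same pigs were lowest for both subunits. The gap between the subunits within a pig stayed between -0.07 and 0.07, and its SD within FE groups was 0.052, beside 0.148 for the large and 0.127 for the small subunit mean. All probe sets tested had per-pig means between -0.04 and 0.02 by the same measure. Array medians were close to each other, which keeps that mean near 0, so it does not show how unusual the shared shift is. The mean of the 58 genes was -0.02 ± 0.16 (SD, n = 6) in high and 0.02 ± 0.12 in low FE. From lowest to highest pig, the mean of the 58 genes spanned 0.40. The span was 0.58 for 45 nuclear subunits of the respiratory chain and ATP synthase, 0.55 for 19 mitochondrial import genes and 0.31 for 13 mitochondrial translation factors.

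**Figure D3:**
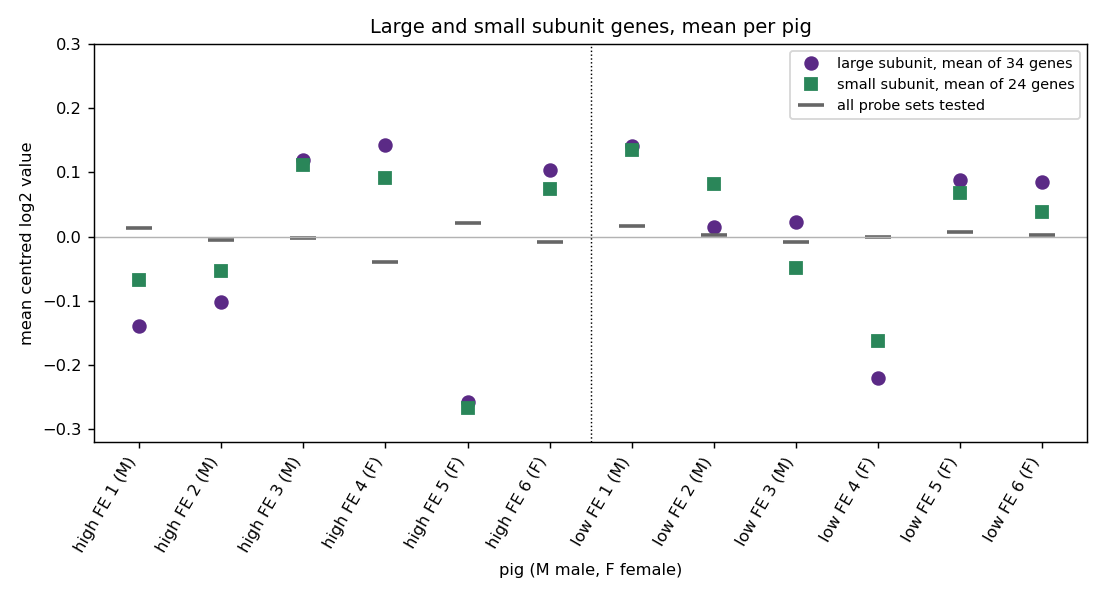
Mean centred log2 value per pig (vertical axis) of the 34 large subunit genes (circles) and the 24 small subunit genes (squares), with the mean of all probe sets tested as a bar. The symbols of a pig lie close together, and high FE pig 5 and low FE pig 4 are lowest for both subunits.

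Counted gene by gene, the pattern was the same. In low FE pig 4 only 6 of the 58 genes lay above their own median over the 12 pigs, and in high FE pig 5 only 11. The counts were 21 in each of high FE pigs 1 and 2 and between 31 and 40 in the other 8 pigs. Of all probe sets, 43.5% to 53.2% lay above their own median in each pig, a share that the closeness of the array medians also keeps narrow. High FE pig 5 gave the lowest of the 12 values for 22 of the 58 genes. MRPL34 in that pig was 7.24 beside 7.41 to 8.47 in the other pigs. MRPS30, MRPS31, MRPL1 and MRPL47, the 4 genes with a higher mean in high FE and an unadjusted p under 0.05 in limma, were among the 11 genes above their median in that pig. These 4 were picked for high values in the high FE pigs, that pig among them. Their place above the median there follows in part from that choice and is no separate result. The exceptions in low FE pig 4 were MRPL3, MRPL13, MRPL45, MRPL53, MRPS10 and MRPS31. These exceptions were picked out after their values were seen.

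The spread over pigs was modest for most of the genes. The median SD was 0.239, beside 0.277 for all genes and 0.303 for all probe sets tested. After MRPL2, the largest SDs were those of MRPL45, MRPS30 and MRPL1, each at 0.37. The smallest were 0.13 for MRPL20, a protein of bacterial descent that binds ribosomal RNA early in assembly, 0.13 for MRPL44, 0.15 for MRPL39 and 0.16 for MRPL12. MRPL20 values ran only from 7.57 to 8.01.

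**Figure D4:**
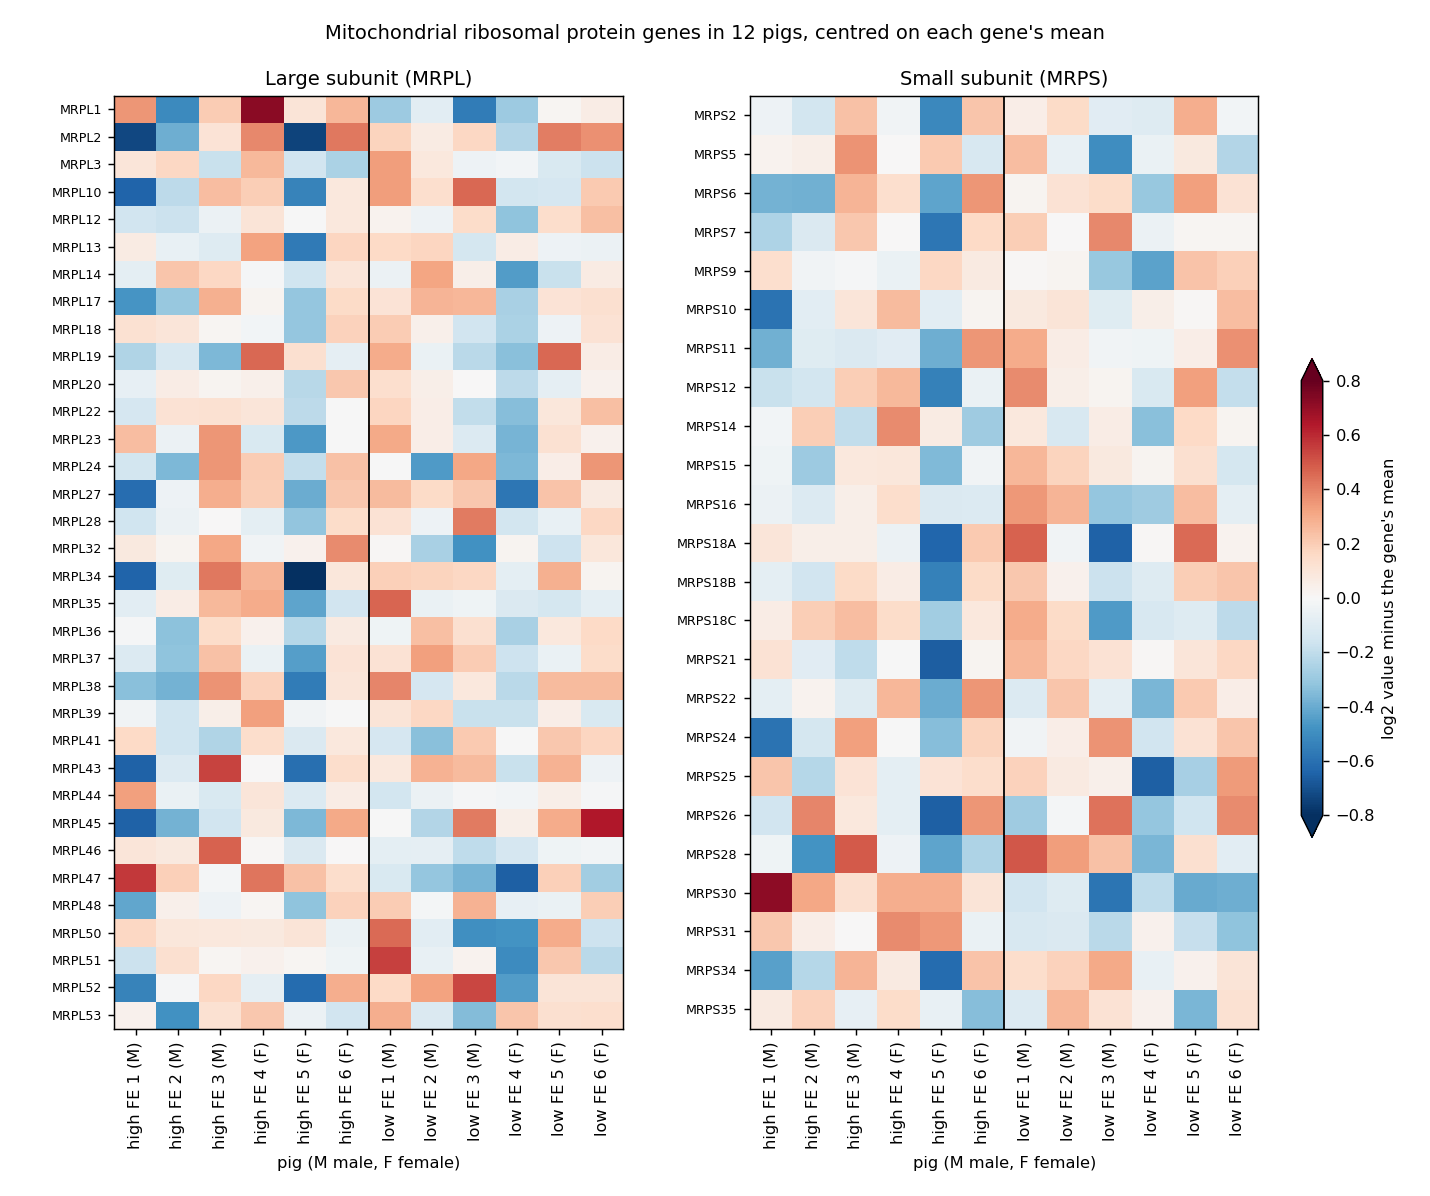
Log2 value of each gene minus its mean over the 12 pigs (colour scale, with darker colours at the ends for values past 0.8), with 34 large subunit genes on the left and 24 small subunit genes on the right, and 1 column per pig. The vertical line parts high from low FE. The columns of high FE pig 5 and low FE pig 4 are mostly blue, while MRPS30 is red in all high FE pigs and blue in all low FE pigs.

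Some other readouts were also low in high FE pig 5, and fewer in low FE pig 4. Array background was lowest in high FE pigs 5 and 1, at 2.16 and 2.17, but at 2.31 in low FE pig 4. The mean of 13 enterocyte markers, centred in the same way, was -0.58 in high FE pig 5 but 0.49 in low FE pig 4. In low FE pig 3, where the ribosomal means were 0.02 and -0.05, 0 of the 13 enterocyte markers lay above their own median. For 45 nuclear subunits of the respiratory chain and ATP synthase, the mean was -0.31 in high FE pig 5 and -0.08 in low FE pig 4. For 28 cytosolic ribosomal proteins, a list without the large subunit genes named RPL and a number alone, it was -0.14 and -0.13. The part of array background and of cell makeup in the shared shift was not tested.

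Sex moved no gene of the mitochondrial ribosome past the threshold either. The count was 0 of 58 at an adjusted p under 0.05, beside 0.021% of all probe sets, and also 0 of 58 at an unadjusted p under 0.05 in limma, beside 4.54%. The mean was higher in males for 36 of 58 genes (62.1%), beside 50.6% of all probe sets. With array background as a term the count was 44, and leaving out low FE pig 4 gave 29. The median difference, male minus female, was 0.05 in the large and 0.06 in the small subunit, and the large subunit median was -0.02 without low FE pig 4. No gene had males and females apart, where 0.269% of all probe sets did.

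The lowest unadjusted p for sex was 0.0562, for MRPS28. Its values were 5.70 ± 0.38 (SD, n = 6) in males and 5.35 ± 0.21 in females, so that males were 0.35 ± 0.16 (SE) higher (adjusted p 0.975). Males ran from 5.04 to 6.02 and females from 5.10 to 5.65, and the ranges overlapped. For MRPL23, at the tunnel exit, the chosen probe set differed by 0.27 ± 0.14 (SE), male minus female, but its other probe sets, both past the filter, by -0.13 and -0.17. No direction by sex is given for it. MRPL14, at the face of the large subunit toward the small one, was higher in males by 0.21 ± 0.12 (SE). MRPL35, MRPL3 and MRPS35 had differences of 0.20, 0.15 and 0.15, which were 0.01, -0.04 and -0.01 with a term for the run of pig identifiers. All 6 males and 2 females fall in the lower run of identifiers and 4 females in the higher.

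Of the genes lower in males, MRPL1 differed by -0.30 ± 0.17 (SE), or -0.17 without high FE pig 2, and MRPL19 by -0.23 ± 0.16 (SE), or -0.15 without high FE pig 4. A second MRPL19 probe set past the filter differed by only 0.004 between the sexes. The mean of the MRPL19 probe sets differed by -0.12. MRPL41, MRPL53 and MRPS10 differed by -0.17, -0.17 and -0.16. A second MRPS10 probe set past the filter differed by -0.45 ± 0.20 (SE), male minus female. Its unadjusted p in limma was 0.042 and its adjusted p 0.975, and it is not in the counts by sex above. The probe sets of MRPL45 went against each other. The chosen one had 5.59 ± 0.36 (SD, n = 6) in males and 5.92 ± 0.33 in females, with -0.33 ± 0.17 (SE) between them. The second had 6.27 ± 0.73 in males and 5.17 ± 0.42 in females. That is a difference of 1.102 ± 0.32 (SE), at an unadjusted p of 0.00494 and an adjusted p of 0.975. MRPL45 is therefore counted by its chosen probe set only, and its direction by sex is not settled.

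The FE difference did not pass a test of a change between the sexes for any of the 58 genes. The interaction count was 0 of 58 at an adjusted p under 0.05, beside 0.00299% of all probe sets, and 0 of 58 at an unadjusted p under 0.05 in limma, beside 3.27%. The FE difference had the same sign in both sexes for 39 of 58 genes (67.2%), beside 58% of all probe sets. High FE had the higher mean for 26 of 58 genes in females and for 17 in males. In the large subunit the median FE difference was -0.0007 in females and -0.10 in males, and in the small subunit -0.07 and -0.06.

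The genes with the lowest interaction p had differences no larger than 1.5 times their error. MRPL10 differed between FE groups by -0.06 in females and by -0.51 in males, an interaction of -0.45 ± 0.36 (SE). MRPS18A differed by -0.32 in females and 0.13 in males, an interaction of 0.45 ± 0.41 (SE). MRPL46 gave 0.30 ± 0.21 (SE), MRPL32 0.24 ± 0.26 (SE), MRPL51 -0.35 ± 0.31 (SE) and MRPL39 -0.26 ± 0.23 (SE). Each interaction had an adjusted p of 0.998. The FE difference of MRPL47 was 0.52 in females and 0.51 in males.

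**Figure D5:**
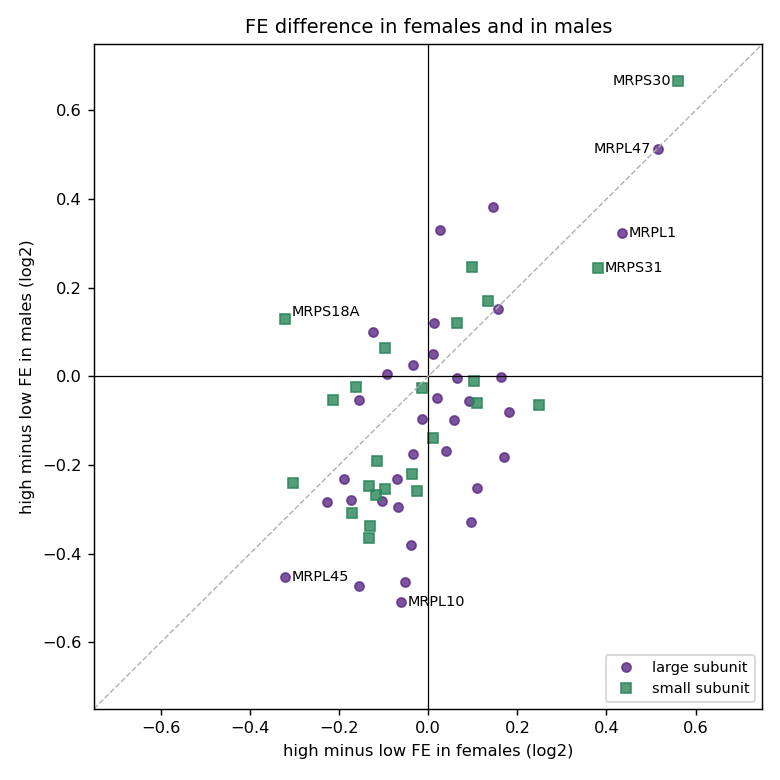
Difference between high and low FE in females (horizontal axis, log2) and in males (vertical axis, log2) for the 34 large subunit genes (circles) and the 24 small subunit genes (squares). Each point is 1 gene, and the dashed line marks equal differences. MRPS30, MRPL47, MRPL1 and MRPS31 lie at the upper right, higher in high FE in both sexes, and most other genes lie around 0.

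For 15 of the 59 genes the array holds more than 1 probe set. More than 1 passed the filter for 12 of them, and for 5 of these the probe sets gave FE differences of opposite sign. MRPL38, a protein of the central protuberance, differed by -0.21 with the chosen probe set and by 0.63 with the other, which ran from 1.02 to 8.42 over the 12 pigs. MRPL27, which lies near the site of peptide bond formation, differed by -0.12 and 0.55. The second MRPL27 probe set was highest in high FE pig 5 at 5.27, where the chosen one, at 5.69, was among its lowest 3 values. MRPS15 differed by -0.18 and 0.12, MRPL35 by -0.01 and 0.25 and MRPL13 by -0.05 and 0.06. The second MRPS18B probe set averaged 2.14, at array background, and no difference is given for it. Both values are given because the array annotation does not say which probe set follows the transcript better. MRPS30 rests on 1 probe set.

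The rest of the mitochondrial translation machinery was read from the same fit, and no gene of it passed the adjusted threshold between the FE groups. Of 5 ribosomal proteins with other symbols 4 were lower in high FE (median -0.08), or 3 with array background as a term (median -0.005). DAP3, a small subunit protein that binds GTP, differed by -0.10 ± 0.11 (SE), and PTCD3, the small subunit protein also called mS39, by 0.23 ± 0.11 (SE). Of 12 factors for ribosome assembly and ribosomal RNA 7 were higher (median 0.08), or 8 with that term (median 0.05), with RPUSD4 and RPUSD3, both pseudouridine synthases, at -0.39 ± 0.20 (SE) and -0.31 ± 0.17 (SE).

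Among 13 mitochondrial translation factors 10 were higher in high FE, also with array background as a term (medians 0.06 and 0.10). In limma 3 of 13 (23.1%) had an unadjusted p under 0.05, all higher, beside 5.99% of all probe sets and 2.65% in that direction. Small lists vary widely in this share. It was 2 of 11 for genes of mitochondrial DNA (18.2%, both higher) and 0 of 12 for the assembly and ribosomal RNA factors. For goblet cell markers it was 2 of 6 and for smooth muscle genes 3 of 9 (33.3% each, all lower). MTIF2, which brings the first tRNA to the ribosome, had 5.93 ± 0.28 (SD, n = 6) in high and 5.44 ± 0.16 in low FE, or 0.48 ± 0.14 (SE) more, at an unadjusted p of 0.00405 and an adjusted p of 0.753. MTRF1L, a release factor, differed by 0.40 ± 0.15 (SE), and GUF1, a relative of the bacterial elongation factor LepA, by 0.32 ± 0.14 (SE). Their unadjusted p-values were 0.0188 and 0.0414. Over 13 genes for mitochondrial aminoacyl-tRNA supply the median was 0.01, and -0.05 with that term. GATC, a subunit of the enzyme that makes glutaminyl-tRNA, differed by -0.44 ± 0.19 (SE) and PARS2, which loads proline, by -0.23 ± 0.13 (SE).

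For mitochondrial DNA, 8 of 11 genes of its transcription and replication were higher in high FE (median 0.04), or 6 with array background as a term (median 0.05). SSBP1, which coats single-stranded mitochondrial DNA, differed by 0.35 ± 0.12 (SE) and POLG2, a subunit of its polymerase, by 0.49 ± 0.18 (SE). Of 10 regulators of mitochondrial biogenesis 7 were lower (median -0.01), or 8 with array background as a term (median -0.05) and 5 after quantile normalization (median 0.0002), with NRF1 at 0.20 ± 0.15 (SE) and PPARGC1B at -0.25 ± 0.23 (SE). Of 19 import genes 10 were lower (median -0.003), or 7 with array background as a term (median 0.04). TIMM9, a chaperone between the mitochondrial membranes, differed by 0.44 ± 0.13 (SE), and TIMM13, its relative, by 1.32 ± 0.66 (SE).

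The proteins that these ribosomes make are built into complexes with subunits encoded in the nucleus. Of 45 nuclear subunits of complexes I, III, IV and V, 39 had the lower mean in high FE (median -0.15), and 38 of 45 with array background as a term (median -0.10), where the ribosomal count went from 39 to 28 of 58. Whether these lists differ from each other was not tested. COX6A1 differed by -0.43 ± 0.15 (SE) and NDUFS4 by -0.45 ± 0.17 (SE). The 3 subunits of complex II measured, a complex with no part made in mitochondria, were all lower, with a median of -0.29, or -0.12 with that term. SDHA differed by -0.29 ± 0.16 (SE) and SDHD by -0.29 ± 0.25 (SE). Of 28 cytosolic ribosomal proteins 21 were lower (median -0.13), or 19 with that term (median -0.06). The list leaves out large subunit genes named RPL and a number alone, so it does not describe the whole cytosolic ribosome. RPS25 differed by -0.75 ± 0.33 (SE), and RPS4X, at a level near array background, by -0.45 ± 0.19 (SE). No gene of these lists passed the adjusted threshold.

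Markers of the cells that a mucosal sample can hold also differed between pigs, with none past the threshold for FE. Of 13 enterocyte markers 7 were higher in high FE (median 0.09), but 5 with array background as a term (median -0.04), and of 17 proliferation genes 11 (median 0.05), or 9 with that term (median 0.009). All 6 goblet cell markers measured were lower (median -0.33, or -0.21 with that term). The 5 of Brunner glands and gastric-type cells were lower too (median -1.43), 4 of 5 with that term (median -1.16). Their centred mean was -0.71 ± 1.43 (SD, n = 6) in high and 0.71 ± 1.76 in low FE. It ran from -2.37 in high FE pig 1 to 3.51 in low FE pig 3, and up to 1.33 within high FE. The 9 pancreatic acinar genes were lower (median -0.58, or -0.19 with that term), with a mean of 2.48 in low FE pig 6 and none above 0 in the other 11 pigs on the centred scale. Of 9 smooth muscle genes 8 were lower (median -0.17, or -0.19 with that term). Of 10 genes of T and NK cells, 8 were higher (median 0.05), or all 10 with that term (median 0.15). Of 5 plasma and B cell genes 3 were lower (median -0.09, or -0.01 with that term). Their part in the values of the mitochondrial ribosome genes was not tested. Low FE pig 6, with the high pancreatic mean, lay at 0.09 and 0.04 for the large and small subunit means, inside the range of the other pigs.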

How the data were processed

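Per the labels' protocols, total RNA of duodenal mucosa was extracted with Qiazol and RNeasy columns, transcribed with an Ambion WT Expression kit and labelled with biotin, 1 array per pig. The submitters' processing notes name GCOS 1.1.1. How background was corrected, arrays normalized and probes summarized is not given in the sources used here. Values deposited by the authors behave as log2 values. They ran from 0.21 to 14.21, covered 47845 probe sets, and were not changed. Symbols come from the platform annotation, which can be old. All 59 symbols of the genes described are current symbols in the RefSeq Sscrofa11.1 gene table. No coordinates are given, since no build is named for the array.

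The 123 control probe sets and probe sets with a mean at or below the 30th percentile were left out. Differences of the other 33405 were tested in R 4.3.3 by limma 3.58.1 (lmFit, eBayes), with FE and sex in 1 model and a mean per combination of FE and sex for the interaction. P-values are two-sided, adjusted over these 33405 by Benjamini-Hochberg, at a threshold of 0.05. Lists are described by counts and medians, with no test. The fits were also run on data simulated with independent noise for each probe set, without the shared shift between pigs. The outcome of that simulation is not reported here. The genes described and the lists were chosen with earlier results of these data known. Named are the 8 higher and 8 lower genes of lowest p for FE, 6 and 6 for sex and 3 and 3 for the interaction, the 4 of largest and the 4 of smallest SD, genes below the filter, up to 5 whose probe sets disagree in sign, those whose groups do not overlap, MRPS30 and the MRPS18 genes, and 2 per other list. Others named were chosen after their values were seen. The alternatives changed the normalization, the filter, array weights, the variance model, model terms, probe sets per gene, the assignment to subunits and the set of pigs.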

Additional observations from a re-analysis of the deposited data

Results flagged for a closer look

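In the FE groups of 6 pigs, the highest or lowest pig was set against the others of its group for the named genes and the subunit means, 76 groups in all. A pig stood apart in 7 of them (a gap to the nearest pig, over the whole range, above Dixon's critical value). That value is passed by about 1 in 20 groups by chance when groups are independent and not selected. The genes here were named from these same data and move together, so the count of 7 cannot be judged against that share. MRPS30 in high FE pig 1 was 6.62, with the next pig at 6.217. MRPL46 in high FE pig 3 was 7.238, with the next at 6.868. High FE pig 5 was the low pig for MRPS18C at 4.859 and for MRPS18A at 5.634. MRPL35 in low FE pig 1 was 6.921, where the other 5 low FE pigs lay between 6.316 and 6.418. Low FE pig 4 stood apart for MRPL27 at 5.506 and for the large subunit mean at -0.2195. The FE difference of MRPS30 without high FE pig 1 was 0.53, and over the fits without each of the 12 pigs it lay between 0.53 and 0.66.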

How the results depend on the processing

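No gene of the mitochondrial ribosome passed the adjusted threshold for FE, sex or the interaction in any of the settings run (up to 22 per result, 12 of them leaving out 1 pig). Over all probe sets, the FE count was 0 to 1 with 1 pig left out, 1 without low FE pig 4. The sex count was 7, and 3 once the model held the run of pig identifiers. The interaction count was 1, 0 with the filter at the median, and 0 to 1 with 1 pig left out. The FE medians lay between -0.10 and 0.01 for the large subunit and between -0.14 and -0.01 for the small, with the upper ends given by array background as a term. The FE difference of MRPS30 lay between 0.50 and 0.66, with an adjusted p from 0.524 to 1.00. Of 36 differences of named genes, 5 reversed in some setting. For FE this was MRPS18A, at 0.035 without high FE pig 5 (-0.25 to 0.035 with 1 pig left out). For sex these were MRPL23 and MRPL45, at -0.014 and 0.38 when a symbol's probe sets were averaged, and MRPL3 and MRPS35, at -0.043 and -0.013 once the run of identifiers was in the model. For the mean of probe sets, the other probe sets themselves give the change, and otherwise the cause was not tested. The counts and medians of gene lists and subunit regions under quantile normalization and with array background as a term were added after seeing the data. No paired analysis was possible because the labels give no replicate numbers that pair pigs across groups.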

Other observations

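The second MRPL38 probe set varied widely between pigs of the same group. In high FE pigs 1 to 6 it read 5.55, 5.42, 1.59, 8.42, 1.87 and 4.86, and in low FE pigs 1 to 6 it read 5.08, 1.02, 3.01, 4.65, 4.59 and 5.57. The chosen MRPL38 probe set stayed between 5.98 and 6.93 over the same pigs. The second MRPL45 probe set split the pigs mostly by sex, with high FE males 1 to 3 and low FE males 1 to 3 at 6.80, 5.69, 6.47, 5.05, 6.79 and 6.80 and high FE females 4 to 6 and low FE females 4 to 6 at 5.83, 4.63, 4.83, 5.16, 5.36 and 5.18. High FE pig 2, at 5.69, and low FE pig 1, at 5.05, were the males that lay within the range of the females. The 4 other males lay above all females. These patterns were noticed in the data and are given as values only.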
